A study of Rattus norvegicus with 9 samples.

Results

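The 9 genes described here brake the cell cycle or answer to p53, and they were taken by symbol from the 16730 genes present in both deposited gene tables of a rat liver fibrosis series. Cdkn2a, Cdkn2b and Cdkn2c are INK4 inhibitors of cyclin dependent kinases, Cdkn1a, Cdkn1b and Cdkn1c are CIP/KIP inhibitors, and Mdm2, Ccng1 and Gadd45a are targets of p53 with roles in feedback and stress. Poly(A) RNA from liver tissue of male Sprague-Dawley rats was sequenced in 3 groups of 3 libraries. The normal control group received no CCl4, a hepatotoxin, but saline in its place. The model group was given CCl4 by gavage at 2 ml/kg of a 50% oil solution for 9 weeks, and the TA group received the same CCl4 and then tormentic acid (TA), a triterpene, at 3.0 mg/kg for 6 weeks. That dose comes from the series' design text, since the labels of the single libraries give none. All rats were fasted for 12 h before sampling. The labels number the libraries of each group 1 to 3 without saying whether each came from a separate rat, so the p-values measure the spread between these libraries, which may be technical.

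INK4 proteins bind the kinases CDK4 and CDK6 and hold them away from D cyclins, whereas CIP/KIP proteins bind complexes of cyclin with kinase. p53 is a transcription factor that responds to DNA damage and other stress. It switches on Cdkn1a, which halts the cycle, and also Mdm2, whose product marks p53 for destruction and so closes a feedback loop. In liver, p53 targets are known to answer to genotoxic and oxidative injury, and INK4 genes are widely used as markers of senescent cells.

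Promoter sequences were read from RefSeq (GRCr8) for 8 of the 9 genes, over the 250 bases before each start site. These stretches are shown because they place 3 p53 targets that carry a p53 half-site beside Cdkn2b, an INK4 gene without one. Capitals mark the p53 half-site (the element bound by a pair of p53 molecules, which reads the same on both strands) and the GC box (GGGCGG, or CCGCCC on the other strand). No half-site overlapped a GC box in these promoters. A stretch was shortened where another transcript of the gene begins inside the window. Cdkn1a lies at chr20:7150682-7150819 on the plus strand, Ccng1 at chr10:25684877-25685126 on the minus strand, Gadd45a at chr4:97486800-97487049 on the minus strand and Cdkn2b at chr5:109134907-109135105 on the minus strand.
Cdkn1a: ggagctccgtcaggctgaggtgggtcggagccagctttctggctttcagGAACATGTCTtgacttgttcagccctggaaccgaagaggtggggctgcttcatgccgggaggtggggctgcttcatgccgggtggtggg
Ccng1: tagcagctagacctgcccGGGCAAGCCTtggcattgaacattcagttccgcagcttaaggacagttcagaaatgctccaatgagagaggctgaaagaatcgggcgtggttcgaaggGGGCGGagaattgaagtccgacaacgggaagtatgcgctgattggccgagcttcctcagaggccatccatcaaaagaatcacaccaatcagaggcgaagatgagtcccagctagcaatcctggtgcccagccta
Gadd45a: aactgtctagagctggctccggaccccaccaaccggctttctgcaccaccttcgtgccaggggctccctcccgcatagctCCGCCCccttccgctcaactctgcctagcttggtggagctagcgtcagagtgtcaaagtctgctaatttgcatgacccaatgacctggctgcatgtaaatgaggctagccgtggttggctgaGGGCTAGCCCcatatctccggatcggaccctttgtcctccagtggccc
Cdkn2b: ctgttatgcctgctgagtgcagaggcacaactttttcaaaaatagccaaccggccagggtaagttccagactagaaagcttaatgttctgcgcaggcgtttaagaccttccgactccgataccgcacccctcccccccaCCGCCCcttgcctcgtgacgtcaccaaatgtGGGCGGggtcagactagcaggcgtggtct
The half-site of Cdkn1a, GAACATGTCT, began 201 bases before the start site. Ccng1 carried GGGCAAGCCT at 232 bases and Gadd45a carried GGGCTAGCCC at 48 bases, while Cdkn2c held GAGCTAGCTC at 11 bases. A half-site was present in 4 of the 8 promoters, against 6.6% of all 27457 promoters of the same length and 14.3% of 35 promoters of other p53 targets. These counts used the full windows. Those of Cdkn2a, Cdkn2c and Mdm2 lay wholly inside the annotated span of the gene, so the half-site of Cdkn2c is not upstream of every transcript. A GC box was present in 7 of the 8, against 32.4% of all promoters. These matches describe letters only, and Mdm2, whose window held 2 GC boxes and no half-site, is as well known a p53 target as Cdkn1a.

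Levels below are CPM, the reads of a gene relative to the library total after TMM scaling, which corrects for a few abundant genes taking up the reads. Totals ran from 13156735 to 18090405 counted reads. One library, Model 1, stood apart from the other 8. Its TMM factor was 1.695 against 0.816 to 1.156 elsewhere, its 50 most abundant genes held 27.9% of the reads against 40.4 to 45.7%, and its summed hepatocyte markers (8 of 8 genes found) were 34300 CPM against 98170 to 178200 CPM. Values without Model 1 are given beside the results it touches, and those for gene lists were added after the data were seen. In bulk tissue, fewer cells of a type and less RNA per cell cannot be told apart. The edgeR quasi-likelihood test was read by 2 rules. The first asked for a Benjamini-Hochberg adjusted p under 0.05 over all genes tested. The second took the study's thresholds for differentially expressed genes (DEGs), a p under 0.05 before adjustment and more than 1 log2 unit between the groups. The 3 comparisons share groups, so they are not independent of each other.

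**Figure D1:**
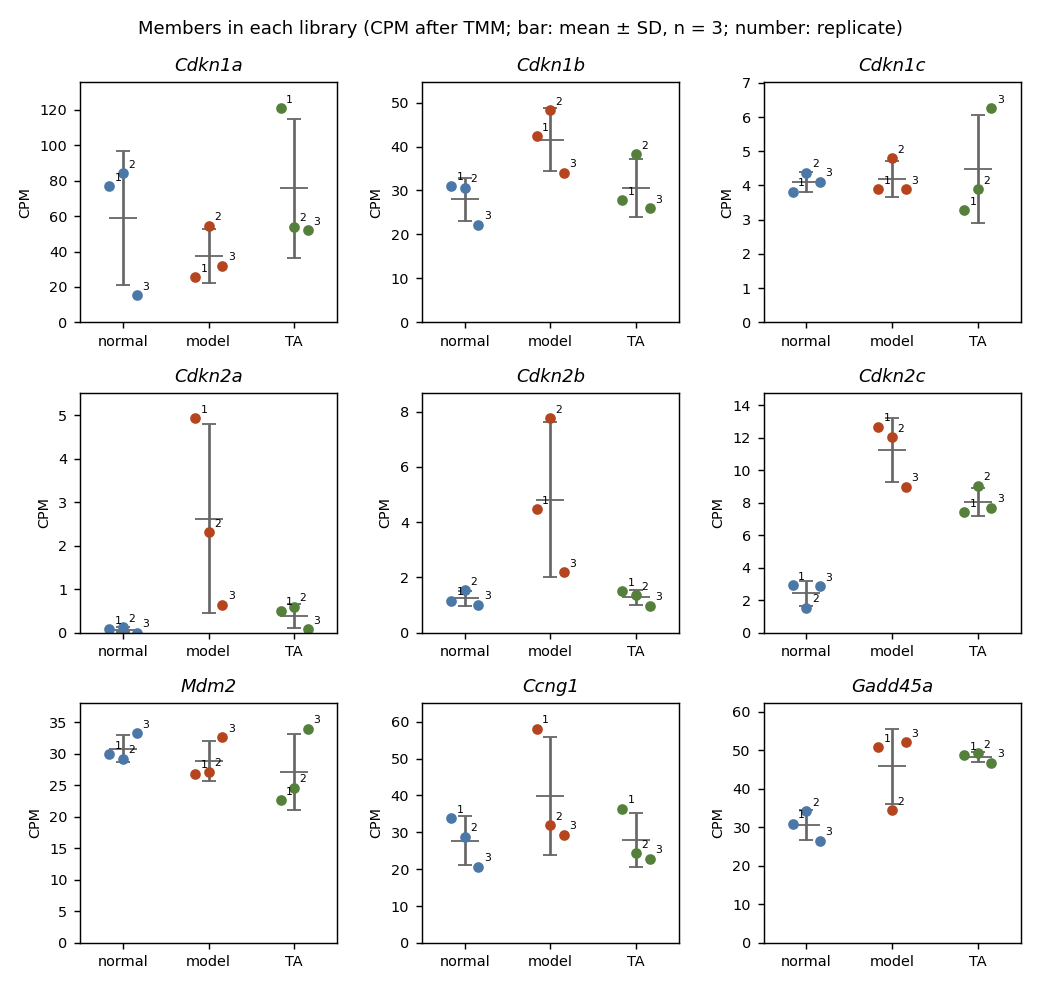
CPM (linear axes from 0) of the 9 genes in each library, by group, with the mean ± SD (n = 3) and the replicate number beside each point. Cdkn2a, Cdkn2b and Cdkn2c are highest in the model group, Cdkn2c stays at 7.40 to 9.05 CPM in the TA group, and Cdkn1a spreads from 15.3 to 121 CPM.

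In Model VS Normal, the INK4 genes stood higher in every model library than in any normal library. Cdkn2c, which encodes p18 INK4c, was at 2.91, 1.54 and 2.85 CPM in Normal 1, 2 and 3, at 12.7, 12.0 and 8.98 CPM in Model 1, 2 and 3, and at 7.40, 9.05 and 7.68 CPM in TA 1, 2 and 3. All model and TA libraries lay above all normal libraries. Cdkn2c rose 4.64-fold in the model group (log2 fold change 2.22, SE 0.37, edgeR adjusted p = 0.0173, n = 3 and 3). It was the only member with an adjusted p under 0.05, 1 of the 8 tested, against 6.86% of 12730 genes that rose and 1.01% that fell by this rule. The calls over all genes, 1002 in number, became 51 without Normal 1, 0 without Normal 2 or Normal 3, and 2537 without Model 3. Without Model 1 the log2 fold change was 2.11 (edgeR adjusted p = 0.0189). Leaving out a normal library instead gave adjusted p = 0.0653 (Normal 1), 0.0912 (Normal 2) and 0.0916 (Normal 3), each above 0.05, with log2 fold changes of 1.95 to 2.35.

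Cdkn2b, which encodes p15 INK4b, gave 14, 24 and 12 counted reads in the normal libraries, 100, 118 and 31 in the model libraries and 21, 16 and 13 in the TA libraries. In CPM these were 1.16, 1.54 and 1.01 in the normal group, 4.48, 7.76 and 2.19 in the model group and 1.495, 1.35 and 0.969 in the TA group. Every model library exceeded every library of the other groups, and the normal and TA libraries overlapped. Cdkn2b had a log2 fold change of 1.95 in Model VS Normal (SE 0.54, edgeR adjusted p = 0.0651, n = 3 and 3), which met the study's DEG thresholds but not the adjusted one. Without Model 3, the model library lowest in Cdkn2b, the adjusted p was 0.0220, and DESeq2 on all libraries gave an adjusted p of 0.0115. Without Model 1 the edgeR adjusted p was 0.0871. Over all fits with 1 library left out, the edgeR adjusted p of Cdkn2b ran from 0.0220 to 0.182. Its log2 fold change ran from 1.43 (without Model 2) to 2.27 (without Model 3). In all, 2 of the 8 tested members met the DEG thresholds in the higher direction, Cdkn2b and Cdkn2c, against 16.6% of all genes, and none met them in the lower direction, against 5.55%.

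Cdkn2a lies beside Cdkn2b on chromosome 5 and encodes p16 INK4a and, in another frame, p19 Arf, a protein that restrains Mdm2. The gene counts do not separate these products. It gave 1, 2 and 0 counted reads in Normal 1, 2 and 3, 110, 35 and 9 reads in Model 1, 2 and 3, and 7, 7 and 1 reads in TA 1, 2 and 3. It failed the filter on low counts in all 3 comparisons and so has no main test. Summed over the group and scaled for depth, the model libraries held 39.2 times the normal level (95% exact interval 13.2 to 192, counting error only), from 154 reads against 3. Without Model 1 the ratio was 19.7 (6.33 to 99.4). When every gene with a count was tested, edgeR gave a log2 fold change of 4.98 (adjusted p = 0.0235), and DESeq2 gave 5.13 (adjusted p = 4.83e-04). Model 1 alone held 110 of the 154 reads. With a normal library left out Cdkn2a passed the filter, and edgeR gave adjusted p = 0.1145 (without Normal 1), 0.140 (Normal 2) and 0.133 (Normal 3), each above 0.05. Without Model 3, the model library with the fewest Cdkn2a reads, the adjusted p was 0.0103. In these leave-out fits Cdkn2a passed the filter only through model libraries, where it is high, so their p-values lend the difference no support.

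The model libraries did not overlap the normal ones in 5 of the 9 genes, Cdkn1b, Cdkn2a, Cdkn2b, Cdkn2c and Gadd45a, against 38.2% of all genes tested. For each of them the exact permutation test (two-sided, on log2 CPM) gave p = 0.1, below which 3 against 3 libraries cannot go.

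**Figure D2:**
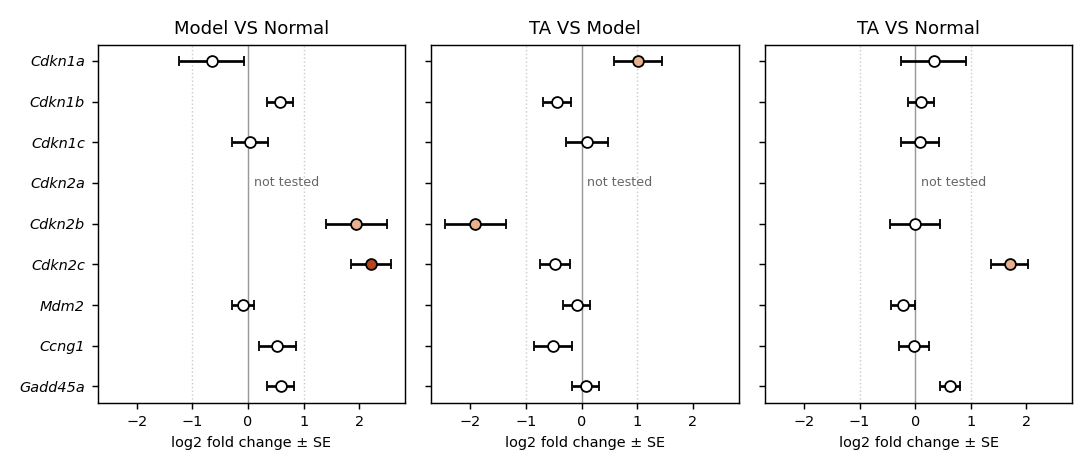
Log2 fold change ± SE (edgeR) of each gene in the 3 comparisons; dark points have an adjusted p under 0.05, light orange points meet the study's DEG thresholds only, open points meet neither, and dotted lines mark -1 and 1. Cdkn2c is the 1 dark point (2.22 in Model VS Normal), Cdkn2b moves from 1.95 to -1.91, and Cdkn2a was not tested.

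In TA VS Model, the INK4 genes were all lower in mean, to different degrees, and none had an adjusted p under 0.05 in the main test. Cdkn2b was 3.76-fold lower in the TA group (log2 fold change -1.91, SE 0.54, edgeR adjusted p = 0.252, n = 3 and 3), with no overlap between the groups. Without Model 1 its value was -1.95 (adjusted p = 0.394). No gene of the 12781 tested had an adjusted p under 0.05 by edgeR in this comparison, although 1999 had an unadjusted p under 0.05. DESeq2 called 520 genes, among them Cdkn2b (adjusted p = 0.0433), and limma voom called 169. Cdkn2a was lower in the TA than in the model group by a factor of 7.80 in summed reads (95% exact interval 4.59 to 14.3), and by 3.93 (2.14 to 7.595) without Model 1, intervals that cover counting error only. Between libraries its difference did not pass, with log2 fold changes of -2.74 by DESeq2 (adjusted p = 0.0690) and -2.73 by edgeR on every gene with a count (adjusted p = 0.246). With 1 library left out, edgeR gave adjusted p = 0.0811 to 0.567 in the 4 fits where Cdkn2a passed the filter. Cdkn2c had a log2 fold change of -0.48 (SE 0.27, edgeR adjusted p = 0.405), and its TA and model libraries overlapped, TA 2 at 9.05 CPM lying above Model 3 at 8.98 CPM. Without Model 1 the value was -0.37.

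Against the normal group, Cdkn2c was 3.25-fold higher in the TA group (log2 fold change 1.70, SE 0.34, edgeR adjusted p = 0.102, n = 3 and 3). It met the study's DEG thresholds, as did 4.24% of 12179 genes in the higher and 1.02% in the lower direction, and was the only member to do so. Only 0.23% of genes were higher at an adjusted p under 0.05, none of them a member. With the replicate number as a block, Cdkn2c gave 1.73 (adjusted p = 0.0539), while the calls over all genes went from 32 to 203. DESeq2 gave an adjusted p of 7.72e-04 and limma voom 0.0421. With 1 library left out, edgeR gave Cdkn2c adjusted p = 0.120 to 0.351, each above that of the main fit. Its log2 fold changes were then 1.45 to 1.84. Cdkn2b, at 50 summed reads in each group, had a log2 fold change of 0.00 (SE 0.45), and its summed level in the TA group was 1.005 times the normal one (95% exact interval 0.666 to 1.52, counting error only). Cdkn2a held 15 reads in the TA group against 3 in the normal group, a ratio of 5.03 (1.42 to 27.1), and these groups overlapped.

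Ratios of the deposited FPKM values within a library do not depend on the scaling between libraries. They were chosen after the values were seen. The ratio of Cdkn2b to Cdkn2c was 0.0896, 0.164 and 0.0619 in Model 1, 2 and 3 and 0.0512, 0.0379 and 0.0320 in TA 1, 2 and 3. The TA libraries were all below the model libraries, a log2 difference of -1.29 (p = 0.1 by the exact permutation test). Relative to Mdm2, Cdkn2c was higher in the model than in the normal group by 2.35 on the log2 scale and in the TA than in the normal group by 1.98, without overlap in either case (exact permutation p = 0.1 for each). The TA and model groups differed in it by -0.36, with overlap (exact permutation p = 0.3). Over 12 such tests the smallest p possible was 0.1, so no adjusted value could pass 0.05.

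The summed level of 15 proliferation genes (of 16 listed) was, like Cdkn2b, higher in every model library than in the other groups. It was 42.5 to 50.6 CPM in the normal libraries, 477, 171 and 76.6 CPM in Model 1, 2 and 3, and 40.7 to 61.2 CPM in the TA libraries. The TA sums overlapped the normal range, while Cdkn2c stayed at 7.40 CPM or more in TA. By the study's thresholds 13 of the 15 genes were higher in Model VS Normal, beside 16.6% of all genes. Among them were Aurkb (log2 fold change 3.84), Mcm5 (4.08) and Cdk1 (4.12), which drive mitosis, replication licensing and entry into mitosis. Against the model group 14 were lower in TA, beside 10.2% of all genes, among them Aurkb (-3.72), Ccna2 (-4.57) and Mcm5 (-3.23). In TA VS Normal none passed. Cdkn3, a phosphatase that acts on CDK2 and the 1 other inhibitor found, was higher in Model VS Normal (2.77) and lower in TA VS Model (-3.77) by the same thresholds. Without Model 1 the counts were 10 of 15 against normal and 12 of 15 for TA against model, beside 12.2% and 4.96% of all genes. Cdkn3 was then at 1.95 and -2.96. Whether dividing cells had a part in the INK4 levels was not tested.

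**Figure D3:**
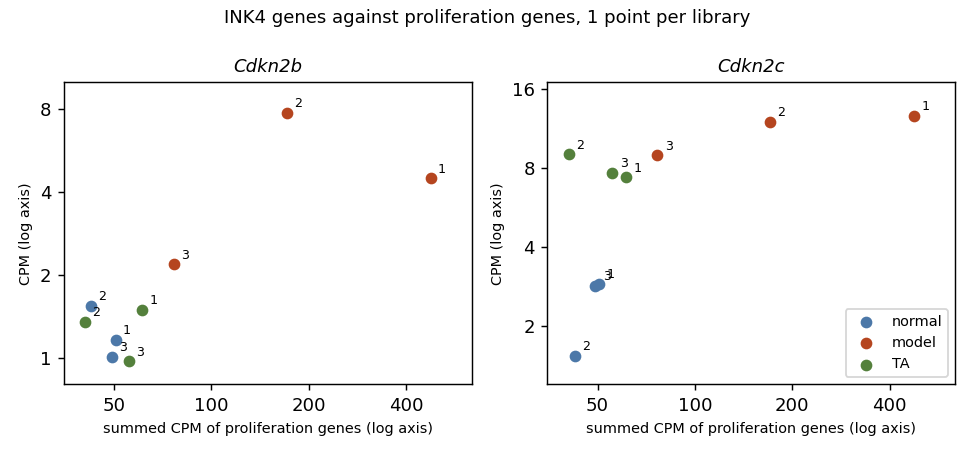
CPM of Cdkn2b (left) and Cdkn2c (right) against the summed CPM of 15 proliferation genes, 1 point per library with its replicate number, all axes logarithmic. The TA libraries lie among the normal ones for Cdkn2b (0.969 to 1.495 CPM) and above them for Cdkn2c (7.40 to 9.05 CPM), at proliferation sums of 40.7 to 61.2 CPM.

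Hepatocyte markers (8 of 8) summed to 119200 to 157900 CPM in the normal group, 34300 to 110300 CPM in the model group and 104800 to 178200 CPM in the TA group. Every model sum lay below every normal sum, and the median log2 fold change of the 8 genes in Model VS Normal was -0.79, with none past either rule. Without Model 1, 2 of the 8 were lower by the DEG thresholds, Asgr1 (-1.01) and Ttr (-1.35). This was 25% against 3.77% of all genes. Stellate cell, cholangiocyte, lymphocyte and mesothelial marker sums were higher in every model library than in any normal one. Stellate cell and myofibroblast markers (10 of 11 found) summed to 227 to 325 CPM in the normal group, 1221 to 12680 CPM in the model group and 702 to 1194 CPM in the TA group. Cholangiocyte markers (6 of 6) summed to 18.02 to 31.5, 116 to 1995 and 34.3 to 54.0 CPM, and lymphocyte markers (8 of 8) to 26.8 to 43.9, 64.2 to 78.8 and 36.2 to 46.1 CPM, in the normal, model and TA groups. Mesothelial and adipocyte markers (4 of 5, with 1 to 3 at 0 in each library) summed to 0.4195 to 2.24, 21.6 to 80.6 and 3.47 to 10.8 CPM. Macrophage markers (10 of 10) at 578 to 780, 630 to 2778 and 615 to 1147 CPM, and endothelial markers (5 of 6) at 155 to 188, 146 to 322 and 169 to 235 CPM, overlapped between model and normal libraries. By the DEG thresholds in Model VS Normal, 4 of the 10 macrophage markers were higher and 1 was lower. Of the 5 endothelial markers 2 were higher and 1 was lower, beside 16.6% and 5.55% of all genes. The lower ones were Marco, a Kupffer cell receptor (log2 fold change -2.17, edgeR adjusted p = 0.0639), and Kdr, an endothelial receptor (-1.005, 0.0504). The higher ones included Lyz2 (3.21) and Vwf (1.83), and all were named after their values were seen. Without Model 1, 1 macrophage marker was higher and 3 were lower, and 1 endothelial marker was higher and 0 were lower. Of the 8 lymphocyte markers, 0 were higher with all libraries and 2 without Model 1, the latter 25% against 12.2% of all genes. By the DEG thresholds 8 of 10 stellate cell markers were lower in TA VS Model, and 0 of 10 without Model 1, while 6 of 6 cholangiocyte markers were lower in either case. Of all genes, 10.2% were lower with all libraries and 4.96% without Model 1. The 1 pancreas marker found was at 0 in 7 libraries. The part of these cells in the INK4 results was not tested.

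The CIP/KIP inhibitors behaved in 3 ways. Cdkn1a, which encodes p21, was at 77.0, 84.1 and 15.3 CPM in Normal 1, 2 and 3, at 25.6, 54.7 and 31.95 CPM in Model 1, 2 and 3, and at 121, 54.1 and 51.98 CPM in TA 1, 2 and 3. Its highest library, TA 1, was 7.93 times its lowest, Normal 3, and all groups overlapped. Model VS Normal gave a log2 fold change of -0.65 (SE 0.59, edgeR adjusted p = 0.488, n = 3 and 3), and -1.14 without Normal 3. TA VS Model gave 1.02 (SE 0.43, edgeR adjusted p = 0.313, n = 3 and 3), which met the DEG thresholds by a narrow margin. It no longer met them without Model 1 (0.82), Model 3 (0.93) or TA 1 (0.52). TA VS Normal gave 0.33 (SE 0.59, adjusted p = 0.952), and -0.19 without TA 1.

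Cdkn1b, which encodes p27, was at 31.05, 30.6 and 22.2 CPM in the normal libraries, 42.35, 48.3 and 34.0 CPM in the model libraries and 27.8, 38.2 and 25.95 CPM in the TA libraries. The model libraries lay above the normal ones, by a log2 fold change of 0.58 (SE 0.24, edgeR adjusted p = 0.160). TA overlapped both groups, with log2 fold changes of -0.44 against the model group and 0.10 against the normal group (edgeR adjusted p = 0.411 and 0.965). Cdkn1c, the imprinted gene for p57, was the lowest of the CIP/KIP genes per length, with a mean FPKM of 1.69, 2.65 and 2.04 in the normal, model and TA groups. In CPM it was 3.82, 4.38 and 4.11, then 3.895, 4.80 and 3.89, then 3.27, 3.89 and 6.26 in replicates 1 to 3 of these groups. They overlapped throughout, with log2 fold changes of 0.04, 0.10 and 0.09 in Model VS Normal, TA VS Model and TA VS Normal, the latter pair changing sign with the scaling or test used.

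Among the p53 feedback and stress targets, Gadd45a separated both CCl4 groups from the normal group. It encodes a stress sensor that binds PCNA and p21. Its level was 30.97, 34.2 and 26.5 CPM in Normal 1, 2 and 3, 50.9, 34.5 and 52.2 CPM in Model 1, 2 and 3, and 48.8, 49.3 and 46.8 CPM in TA 1, 2 and 3. Model 2 was above Normal 2 by less than 1 CPM, and the TA libraries were close together. Its log2 fold change was 0.59 against the normal group in the model (SE 0.24, edgeR adjusted p = 0.156) and 0.63 in the TA group (SE 0.18, edgeR adjusted p = 0.258). With the replicate number as a block, the latter was 0.64 (adjusted p = 0.0690). TA VS Model gave 0.08 (SE 0.24, adjusted p = 0.894). The ratio of its FPKM to that of Mdm2 was 2.44, 2.77 and 1.88 in the normal libraries, 4.48, 3.00 and 3.78 in the model libraries and 5.09, 4.73 and 3.25 in the TA libraries, again with every CCl4 library above every normal one (exact permutation p = 0.1 for each comparison).

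Mdm2, the ubiquitin ligase that limits p53, was at 29.97, 29.2 and 33.3 CPM in the normal libraries, 26.8, 27.2 and 32.6 CPM in the model libraries and 22.6, 24.6 and 34.0 CPM in the TA libraries. The groups overlapped, and the highest library was 1.502 times the lowest. The differences were small on the log2 scale, -0.09 (SE 0.20) in Model VS Normal, -0.09 (SE 0.24) in TA VS Model and -0.22 (SE 0.21) in TA VS Normal (edgeR adjusted p = 0.791, 0.869 and 0.873). In Model VS Normal the sign turned with library totals alone (0.52), a scaling that moved the median of all genes to 0.65.

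Ccng1, which encodes cyclin G1, a regulator of Mdm2, was at 33.8, 28.8 and 20.7 CPM in the normal libraries, 58.15, 31.9 and 29.3 CPM in the model libraries and 36.4, 24.35 and 22.9 CPM in the TA libraries. Model 1 was far above the other 8 libraries, which ran from 20.7 to 36.4 CPM. Model VS Normal gave a log2 fold change of 0.53 (SE 0.33, edgeR adjusted p = 0.320), and 0.12 without Model 1. TA VS Model gave -0.52 (adjusted p = 0.459), and -0.12 without Model 1, and TA VS Normal gave -0.02 (SE 0.27).

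Between TA and model groups, 1 of the 8 tested members met the DEG thresholds in the higher direction (Cdkn1a), against 2.11% of all genes, and 1 in the lower direction (Cdkn2b), against 10.2%. The groups did not overlap for 2 of the 9 genes, Cdkn2a and Cdkn2b, against 23.1% of genes tested. TA and normal groups did not overlap for 2 of the 9, Cdkn2c and Gadd45a, against 14.9%. The median log2 fold change of the 8 tested members was 0.55 in Model VS Normal, -0.27 in TA VS Model and 0.10 in TA VS Normal, beside 0.02, 0.00 and -0.01 over all genes.

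Per length, the members differed in mean level, with some of their ranges overlapping. Mean FPKM in the normal group was 25.6 ± 16.7 (SD, n = 3) for Cdkn1a, 20.7 ± 3.14 for Gadd45a and 13.4 ± 2.67 for Cdkn1b, and the spread of Cdkn1a took in both of the other 2. In Normal 3, Cdkn1a was at 6.39, below Mdm2 in every normal library (8.565 to 9.28). Mdm2 (8.83 ± 0.392) and Ccng1 (7.22 ± 1.83) followed and lay within their spread of each other. Cdkn1c (1.69 ± 0.136) and Cdkn2c (1.42 ± 0.432) came next, also within their spread. Cdkn2b (0.185 ± 0.0457) and Cdkn2a (0.0658 ± 0.0611) were lowest. In the model group Cdkn2c reached 10.4 ± 4.24, beside Mdm2 at 12.6 ± 2.53, and Cdkn2a was at 4.25 ± 4.35 and Cdkn2b at 1.11 ± 0.623, within their spread. Without Model 1 the means of the model group were 1.82 for Cdkn2a, 0.999 for Cdkn2b and 8.16 for Cdkn2c. In the TA group Cdkn2c was at 5.24 ± 0.388, Cdkn2a at 0.399 ± 0.282 and Cdkn2b at 0.212 ± 0.0531. FPKM rests on library totals, so differences between groups on this scale carry the shift that TMM removes.

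Of 10 regulators and relatives of p53 found among 12 listed, Tp73, a relative of p53, fell by 2.42 on the log2 scale in Model VS Normal (edgeR adjusted p = 0.0427), from 18, 15 and 21 reads in the normal libraries to 5, 3 and 5 in the model libraries. Chek2, a kinase that activates p53, was higher (1.44) and Hipk2, another such kinase, was lower (-1.12) by the DEG thresholds only. With Tp73, 10% were higher and 20% lower by these thresholds, against 16.6% and 5.55% of all genes. Of 9 tested in TA VS Model 1 passed, Chek2 at -1.22, or 11.1% lower against 10.2% of all genes. In TA VS Normal none of 10 passed, against 4.24% of all genes higher and 1.02% lower. Without Model 1, Tp73 was at -2.33 (edgeR adjusted p = 0.0829). It was then the 1 of the 10 that passed the DEG thresholds in Model VS Normal, 10% lower against 3.77% of all genes. None of 9 passed in TA VS Model, against 1.18% of all genes higher and 4.96% lower.

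Other known p53 targets were called in both directions, in shares close to those of all genes. Of 42 listed, 39 were found and 38 tested. In Model VS Normal 3 rose and 1 fell at an adjusted p under 0.05, 7.89% and 2.63% against 6.86% and 1.01% of all genes. Thbs1, the matrix protein thrombospondin 1, rose by 3.66 on the log2 scale, from 2.32, 3.35 and 1.59 CPM to 31.3, 12.4 and 48.5 CPM (edgeR adjusted p = 0.0138). Sfn, the cell cycle brake 14-3-3 sigma, rose by 2.33 (adjusted p = 0.0309) and Trim24, a ligase for p53, by 1.69 (adjusted p = 0.0418). Sesn2, a stress-induced inhibitor of mTORC1, fell by 1.77 (adjusted p = 0.0283), from 84.7, 75.9 and 141.8 CPM to 23.7, 24.9 and 40.0 CPM.

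By the DEG thresholds the count was 8 higher and 3 lower, 21.1% and 7.89% against 16.6% and 5.55% of all genes. This added the apoptosis genes Pmaip1 (2.06) and Apaf1 (1.48), the repair and replication gene Pcna (1.02), the autophagy gene Dram1 (1.77) and Ddit4 (2.04) on the higher side, and the repair gene Ddb2 (-1.13) and Ei24 (-1.03) on the lower side. The median of the 38 was 0.07, beside 0.02 over all genes. Bax (0.02), Fas (0.50), Gdf15 (-0.38), Phlda3 (-0.47) and Zmat3 (1.00) are core targets that did not pass (edgeR adjusted p = 0.318 to 0.978), named here after their values were seen. Without Model 1 the count of 11 was 7, and 2 rose and 1 fell at an adjusted p under 0.05, Trim24 being at 1.51 (edgeR adjusted p = 0.0646). By the DEG thresholds 15.8% were then higher and 2.63% lower, against 12.2% and 3.77% of all genes.

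With TA against the model group, 1 target was higher by the DEG thresholds, Sesn2 (1.11), and 4 were lower, Sfn (-2.45), Ddit4 (-2.23), Thbs1 (-1.37) and Trim24 (-1.14), or 2.63% and 10.5% against 2.11% and 10.2% of all genes. Sfn was at 1.08, 0.6435 and 1.26 CPM in the normal libraries, 6.85, 3.55 and 4.52 CPM in the model libraries and 1.21, 0.676 and 0.820 CPM in the TA libraries, so that the TA and normal ranges overlapped and the model range did not touch them. The count of 5 was 3 without TA 3. Without Model 1 it was 2, Sfn (-2.13) and Ephx1 (-1.11), and Sesn2, Ddit4, Thbs1 and Trim24 no longer passed. With TA against the normal group, Thbs1 (2.25) and Dram1 (1.05) were higher and none was lower, 5.26% against 4.24% of all genes on the higher side, and the count of 2 was 4 without TA 3 and also without Normal 3.

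**Figure D4:**
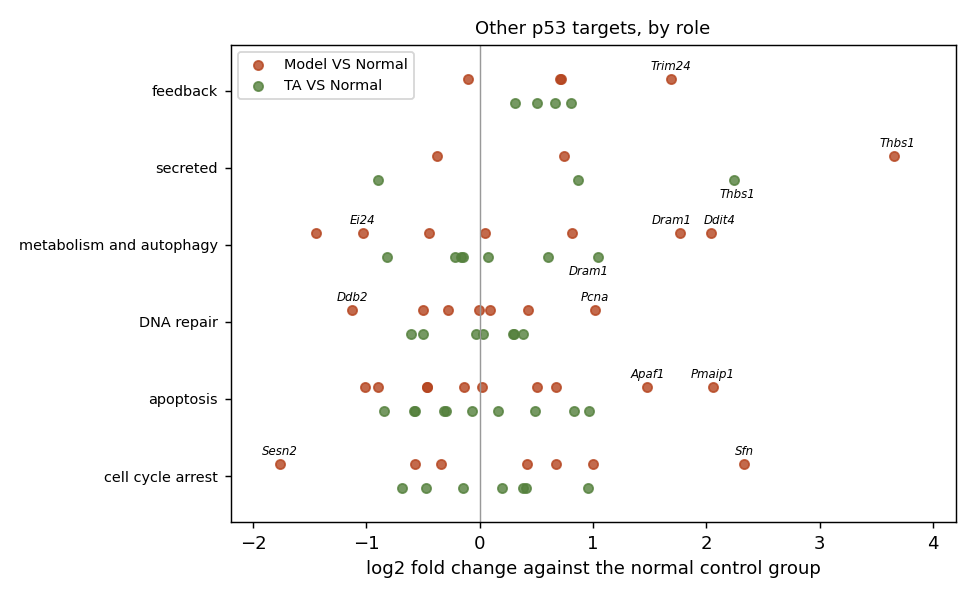
Log2 fold change against the normal control group for 38 other p53 targets, by role, with model in orange and TA in green; genes that met the study's DEG thresholds are named. Most points lie between -1 and 1, and the secreted target Thbs1 is farthest to the right in both groups (3.66 in the model, 2.25 in TA).

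Genes that act with the members were counted in the same way. By the DEG thresholds, 16.6% of all genes were higher and 5.55% lower in Model VS Normal. The shares were 2.11% and 10.2% in TA VS Model, and 4.24% and 1.02% in TA VS Normal. Without Model 1 they were 12.2% and 3.77% in Model VS Normal, and 1.18% and 4.96% in TA VS Model. Of 16 G1 cyclins, kinases, pocket proteins and E2F factors, 5 were higher in Model VS Normal by the DEG thresholds, among them Ccne1 (2.99), E2f5 (1.29) and Rbl1 (2.05), and 5 were lower in TA VS Model, among them Ccnd1 (-1.45), E2f1 (-2.04) and Ccne1 (-2.29). None of 14 tested passed in TA VS Normal. The kinases bound by INK4 proteins, Cdk4 (0.82) and Cdk6 (0.09), did not pass in Model VS Normal and, like Gadd45b below, are named after their values were seen. Of 12 Polycomb genes, whose products repress Cdkn2a and Cdkn2b, none passed in any comparison (log2 fold changes -0.42 to 0.64 in Model VS Normal). Of 7 genes for the turnover of CDK inhibitors, 6 were tested, Cdc20, a mitotic ligase subunit, was higher in Model VS Normal (2.23) and lower in TA VS Model (-2.91), and Skp2, which targets p27, was lower in TA VS Model (-1.42). Without Model 1, 3 of the 16 G1 genes were higher in Model VS Normal and 1 was lower in TA VS Model, and Rbl1 (1.04), Cdc20 (1.29) and Skp2 (-0.695) no longer passed, the last in TA VS Model and the others in Model VS Normal.

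Of 18 transcription factors known to act on these genes, Cebpb fell by 1.60 in Model VS Normal (edgeR adjusted p = 0.0398). By the DEG thresholds 5 were higher, 27.8% against 16.6% of all genes, among them Myc (1.66), Id1 (1.31) and Tbx2 (1.33). Cebpa (-1.18) was also lower, so that 11.1% were lower against 5.55% of all genes. Cebpa (1.26) and Cebpb (1.08) were higher in TA VS Model, 11.1% of the factors against 2.11% of all genes. Beside Gadd45a, the related Gadd45g was lower in Model VS Normal (-1.86) and higher in TA VS Model (1.51) by the DEG thresholds, and Gadd45b did not pass (-0.44 and 0.39). Ddit3, the stress factor CHOP, fell by 1.15 in Model VS Normal (edgeR adjusted p = 0.0427), and Trib3, a pseudokinase it induces, was higher in TA VS Model (2.04). Without Model 1, 2 of the 18 factors were higher in Model VS Normal, 11.1% against 12.2% of all genes, Tbx2 (0.756) no longer among them. Cebpb was then at -1.58 (edgeR adjusted p = 0.0277) and Ddit3 at -1.01 (edgeR adjusted p = 0.0604).

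Of 18 genes associated with senescence, 15 were tested in Model VS Normal, where 6 rose at an adjusted p under 0.05 and 10 were higher by the DEG thresholds. These were 40% and 66.7%, against 6.86% and 16.6% of all genes. Mmp12 (6.09), Timp1 (4.103) and Igfbp7 (2.35) had the smallest p. The 10 included Lmnb1, a lamina gene known to be lost in senescent cells (2.00, edgeR adjusted p = 0.0709). Hmgb2, a chromatin protein likewise known to be lost, was among both the 6 and the 10 (3.16, edgeR adjusted p = 0.0408). These shares therefore do not count only genes known to rise in senescent cells. Lmnb1 and Hmgb2 were named after their values were seen. With TA against the model group 8 of 15 were lower, Lmnb1 (-1.82) and Hmgb2 (-1.99) among them, beside 10.2% of all genes. In TA VS Normal Mmp12 (3.38), Timp1 (1.54) and Plaur (1.19) were higher, 3 of 14 tested, beside 4.24% of all genes. Without Model 1, 4 of the 15 rose and 8 were higher by the DEG thresholds in Model VS Normal, and 3 were lower in TA VS Model. Lmnb1 and Hmgb2 were among these 8, but not among the 4 or the 3. The shares of all genes were then 5.75%, 12.2% and 4.96%.

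The genes most like Cdkn1a, Mdm2 and Ccng1 over the 9 libraries were ranked by Pearson r of log2 CPM among 7953 well expressed genes. The r values describe these libraries, which share groups, depth and scaling. For Cdkn1a the leading genes were Klhdc10 (0.914), Chordc1 (0.913), Hipk1 (0.912), Scamp1 (0.910) and Fto (0.897), with r between 0.755 and 0.897 without Normal 3 and TA 1. For Mdm2 they were Hmgxb3 (0.960), Tnrc6a (0.949), Pik3ca (0.919), Mettl17 (0.911) and Luc7l (0.909). For Ccng1 they were Eif3f (0.965), Akr1a1 (0.962), Fkbp1a (0.956), Spg20 (0.949) and Rexo2 (0.949), with r between 0.828 and 0.866 without Model 1 and Normal 3. No gene appeared on more than 1 of these lists. Among the members themselves, Cdkn2a and Cdkn2b had r = 0.882 over the 9 libraries and 0.873 without Model 1, and Cdkn2b and Cdkn2c had r = 0.581 and 0.492. The closeness of Cdkn2a and Cdkn2b was not particular to INK4 genes. Cdkn1b had r = 0.867 with Cdkn2a and 0.859 with Cdkn2b (0.881 and 0.829 without Model 1). Cdkn1a and Ccng1, both p53 targets, had r = 0.119, and 0.742 without Model 1. The other pairs of p53 targets differed in sign. Mdm2 had r = -0.529 with Cdkn1a, -0.471 with Ccng1 and -0.359 with Gadd45a (-0.654, -0.551 and -0.322 without Model 1). Gadd45a had r = 0.156 with Cdkn1a and 0.359 with Ccng1 (0.324 and 0.158 without Model 1).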

How the data were processed

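Poly(A) RNA libraries from rat liver were compared, 9 in all and 3 in each of 3 groups. The authors trimmed reads with Trimmomatic and Cutadapt, aligned them with STAR and counted them per gene with HTSeq-count. The methods name hg19 and the processing notes mm9, although the symbols are those of rat, so the build is not settled, and whether counting used strand is not given in the sources used here. The deposited tables hold raw counts per gene, with the FPKM values the authors derived from library totals and gene lengths. Their columns of normalized counts, fold changes and p-values hold the study's own comparison and were not used.

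Groups came from the labels. The 2 deposited tables were joined by symbol. Counts were tested with edgeR 4.0.16 in R 4.3.3 (quasi-likelihood F test, default form, TMM, filterByExpr), on the 6 libraries of each comparison, with Benjamini-Hochberg adjustment over all genes tested. The steps were tested on simulated data. Alternatives were DESeq2 1.42.0, limma 3.58.1 voom with quality weights, other scalings, filters and fits, and each library left out. Gene lists without Model 1 were added after seeing the data. CPM in the text were scaled over all 9 libraries, and log2 CPM had a prior count of 2. Intervals of count ratios were 95% exact conditional binomial intervals, for counting error only.

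Same-numbered libraries deviated together in TA VS Normal, with correlations of 0.233, 0.370 and 0.452, so that there the number may pair them, judged from the data alone. The main test used no pairing in any comparison, and fits with the replicate number as a block were alternatives. All 9 genes were named. From other lists at most 3 genes per direction, those with the smallest p among genes that passed, were named, and for likeness the 5 genes with the highest r and a mean log2 CPM of at least 3. The genes and lists were chosen with earlier results of these data known. Promoters came from RefSeq, GRCr8, where Cdkn1c had no entry. Some genes are not reported here and stayed out of the lists, though not out of the fits.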

Additional observations from a re-analysis of the deposited data

How the results depend on the processing

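Counts of members with an adjusted p under 0.05 depended on the test. In Model VS Normal the count of 1 became 3 with DESeq2, 3 with limma voom, 4 with library totals alone, 2 with every gene with a count and 2 with all 9 libraries in 1 fit, and ran from 0 to 3 with 1 library left out. Calls over all genes moved as well, from 873 higher and 129 lower in the main fit to between 0 and 2537 in all with 1 library left out. The shares of all genes under the other settings are not given here, so these counts are no result about the members alone. In TA VS Model the count of 0 became 1 with DESeq2, and in TA VS Normal it became 1 with DESeq2 and 1 with limma voom. By the study's thresholds, the count in Model VS Normal was 5 with library totals (2 in the main fit, 2 to 4 with 1 library left out). In TA VS Model it was 1 rather than 2 with limma voom, library totals, upper quartile scaling, all 9 libraries and the replicate block, in each case because Cdkn1a no longer passed, and 1 to 3 with 1 library left out. Other p53 targets went from 5 to 9 with library totals and 8 with upper quartile scaling in TA VS Model (2 to 7 with 1 library left out), from 2 to 4 with limma voom and with library totals and to 1 with all 9 libraries in TA VS Normal (2 to 4), and ran from 7 to 12 in Model VS Normal, where the main count was 11. The replicate block gave 1, 0 and 0 members with an adjusted p under 0.05 in the 3 comparisons, as without it, and the pairing changed no other call of a member. In Model VS Normal and TA VS Model the same-numbered correlations ran from -0.055 to 0.21 and from -0.038 to 0.213, so the number was not taken as pairing there. Values near 0 changed sign. Mdm2 in Model VS Normal was 0.52 with library totals and 0.034 with upper quartile scaling. In TA VS Model, Cdkn1c was -0.28 with limma voom, -0.38 with library totals and -0.024 with upper quartile scaling, and Gadd45a was -0.42 with library totals and -0.031 with upper quartile scaling. In TA VS Normal, Cdkn2b was -0.008 with DESeq2 and with the newer quasi-likelihood form, -0.002 with RLE scaling and -0.005 with every gene with a count, Cdkn1c was -0.14 with limma voom, and Ccng1 was 0.17 with library totals, 0.028 with upper quartile scaling and 0.006 with all 9 libraries. With 1 library left out, Cdkn1c ran from -0.072 to 0.068 in Model VS Normal, from -0.22 to 0.29 in TA VS Model and from -0.22 to 0.27 in TA VS Normal. In TA VS Model, Gadd45a ran from -0.092 to 0.19 and Mdm2 from -0.28 to 0.033. In TA VS Normal, Ccng1 ran from -0.27 to 0.13, Cdkn1a from -0.19 to 0.69, Cdkn1b from -0.10 to 0.21 and Cdkn2b from -0.13 to 0.20. Library totals moved the median of all genes to 0.65, -0.48 and 0.18 in the 3 comparisons, and upper quartile scaling to 0.14, -0.11 and 0.04. The cause of these changes was not tested. Cdkn2a, with 0 to 110 reads per library, is limited by depth.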
